A study of Mus musculus with 15 samples.

Results

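Germline genes that embryonic stem cells are known to keep silent with the help of promoter DNA methylation were followed after knockdown of Smarcb1, a subunit of the chromatin remodeller BAF. The 9 genes Dazl, Ddx4, Mael, Stk31, Hormad1, Sycp1, Sycp3, Tex101 and Slc25a31 were taken by symbol from the 55228 genes listed in every library. DNA methylation itself was not analysed here, so the name of the group rests on background knowledge, and the files hold RNA levels. The cells were 81K1, a mouse embryonic stem cell line based on OG2, in which an shRNA cassette against Smarcb1 had been placed at the Rosa26 locus of a single modified clone. Cells treated every day with 1 µg/ml doxycycline were sampled at 48 h, 72 h and 240 h (48 h kd, 72 h kd and 240 h kd). Untreated cells of the same line, which carry the cassette too, were sampled at 48 h and 240 h (48 h ctrl and 240 h ctrl). All 5 groups grew in serum and LIF on gelatine, with 3 libraries per group, and a doxycycline-treated line without the shRNA was not analysed here. The labels do not say whether the libraries of a group came from separate cultures, so p-values measure the spread between these libraries, which may be technical.

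In the mouse, these genes are used in germ cells and are switched off in the early embryo, when their CpG-rich promoters gain DNA methylation. In embryonic stem cells, a variant Polycomb repressive complex 1 that contains E2F6, MGA and PCGF6 also holds many germline genes silent. It reaches promoters through an E-box, the letters CACGTG, bound by MGA with MAX, and through E2F-type letters such as GCGGGA. Dazl and Ddx4 encode RNA-binding and RNA helicase proteins of germ cells, and Mael and Stk31 belong to the pathway of small piRNAs that restrains transposons. Hormad1, Sycp1 and Sycp3 build the axis and the synaptonemal complex of meiotic chromosomes. Tex101 encodes a surface protein of male germ cells, and Slc25a31 a testis ADP/ATP carrier of mitochondria.

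The knockdown was seen in Smarcb1 itself, which stood at 3.60 ± 0.29 FPKM (SD, n = 3) in 48 h ctrl and at 18.0%, 15.7% and 19.3% of its control level in 48 h kd, 72 h kd and 240 h kd. FPKM here are per-million read counts per kilobase of the whole gene span, introns included. Library totals, inferred from the FPKM values, lay between 11074998 and 14515300 reads. Among the 15 libraries, 48 h kd replicate 2 stood apart: 2.53% of its reads lay in mitochondrial genes, against 0.507% to 1.95% in the others, and it differed from the other libraries of its group by 9.14 and 11.3 times the sampling noise (chi-square per degree of freedom, 1.51 for the other pair). Without it, 1 of 7 members was still called higher at 48 h, 4 of 7 had an adjusted p under 0.05, the member median was 0.36 and 3.4% of 16051 genes were called higher. The library 240 h ctrl replicate 3 also differed from its group, by 5.02 and 8.89 times the sampling noise, against 2.23 for the other pair, and had the lowest mitochondrial share. The 8 embryonic stem cell markers were present in every library, with a summed level of 4567 to 6441 RPM, the per-million read count of a gene.

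The upstream stretches of 6 of the genes are shown because they hold, or lack, the letters read by the repressive complex described above. Each is the 250 bases before a RefSeq gene start (build GRCm38.p6), 5′ to 3′ on the strand of the gene, and capitals mark CACGTG and GCGGGA or its reverse complement TCCCGC. The first 3 belong to genes that rose after knockdown and hold an E-box.
Hormad1 (chr3:95559427-95559676, plus strand): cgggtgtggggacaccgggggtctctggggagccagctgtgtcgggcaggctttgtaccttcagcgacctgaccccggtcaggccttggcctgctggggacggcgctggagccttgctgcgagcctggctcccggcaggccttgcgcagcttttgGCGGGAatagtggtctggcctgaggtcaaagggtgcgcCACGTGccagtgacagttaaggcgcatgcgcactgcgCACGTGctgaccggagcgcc
Mael (chr1:166238745-166238994, minus strand): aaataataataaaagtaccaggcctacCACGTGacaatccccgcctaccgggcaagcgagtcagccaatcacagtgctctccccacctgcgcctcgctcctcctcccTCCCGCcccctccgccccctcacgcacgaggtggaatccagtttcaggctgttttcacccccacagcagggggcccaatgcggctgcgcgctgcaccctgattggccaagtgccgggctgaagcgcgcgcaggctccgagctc
Sycp1 (chr3:102936101-102936350, minus strand): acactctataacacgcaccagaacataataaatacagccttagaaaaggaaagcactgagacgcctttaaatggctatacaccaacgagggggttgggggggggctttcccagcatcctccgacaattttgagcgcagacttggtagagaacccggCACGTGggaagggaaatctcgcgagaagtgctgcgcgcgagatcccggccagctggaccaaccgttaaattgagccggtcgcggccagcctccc
Sycp3 carries a pair of E-boxes and, among the 3 knockdown comparisons, rose at 72 h only, and Stk31 carries an E-box and rose in none of the knockdown comparisons.
Sycp3 (chr10:88459337-88459586, plus strand): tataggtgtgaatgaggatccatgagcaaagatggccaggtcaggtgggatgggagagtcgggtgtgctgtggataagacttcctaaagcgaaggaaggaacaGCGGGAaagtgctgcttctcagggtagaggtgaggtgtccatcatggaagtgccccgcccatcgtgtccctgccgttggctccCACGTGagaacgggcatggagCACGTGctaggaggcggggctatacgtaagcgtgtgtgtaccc
Stk31 (chr6:49395289-49395538, plus strand): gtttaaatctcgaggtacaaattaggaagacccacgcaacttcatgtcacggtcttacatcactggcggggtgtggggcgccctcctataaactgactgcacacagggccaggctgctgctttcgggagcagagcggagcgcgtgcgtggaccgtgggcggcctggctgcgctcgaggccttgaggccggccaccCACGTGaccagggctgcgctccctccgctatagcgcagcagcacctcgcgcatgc
Dazl has neither motif in this window and rose at 72 h.
Dazl (chr17:50293621-50293870, minus strand): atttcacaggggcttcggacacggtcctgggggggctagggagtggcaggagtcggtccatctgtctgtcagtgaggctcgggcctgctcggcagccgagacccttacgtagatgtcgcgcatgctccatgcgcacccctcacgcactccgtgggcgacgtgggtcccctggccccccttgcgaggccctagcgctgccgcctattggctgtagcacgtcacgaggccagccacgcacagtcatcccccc
For Ddx4 only the E-box and its flanks are given.
Ddx4 E-box: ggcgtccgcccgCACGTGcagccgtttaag

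In the whole window of 300 bases, from 250 before to 50 after the start, CACGTG was found in 7 of the 9 genes, all but Dazl and Tex101. The same letters were found in 8.09% of the 27025 genes with a RefSeq promoter. GCGGGA, searched on both strands, was found in 6 of the 9 genes against 22.1% of all genes, and both motifs together in 6 of 9 against 2.65%. These windows held 15 to 38 CG dinucleotides, against a median of 8.0 over all genes. Among 36 other germline genes with a promoter entry, 10 held CACGTG (27.8%) and 12 the E2F-type letters (33.3%). A match of letters is a description of the sequence and does not show that a factor bound there. In Mael the E-box began 223 bases before the start, and in Ddx4 29 bases before it. The window of Tex101 lay wholly inside its counted span.

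Most of the 9 genes were measurable in stem cells, untreated ones included. Per kilobase of span and averaged over the 15 libraries, the order was Sycp3 at 1.33 FPKM, Ddx4 at 0.710, Dazl at 0.448, Hormad1 at 0.267, Mael at 0.245, Stk31 at 0.102 and Sycp1 at 0.0937. Tex101 at 0.0580 and Slc25a31 at 0.0205 FPKM came last. Over the 15 libraries the ranges of neighbours in this order overlapped, except those of Sycp3 with Ddx4 and of Mael with Stk31. Introns make up most of these spans, with 3.02% to 26.8% of the bases exonic. Per kilobase of exon, Dazl fell to the seventh place, at 1.67 RPM per exonic kilobase, while Sycp3 and Ddx4 stayed first and second at 14.4 and 12.8. That scale assigns every read of the span to exons, and it placed the 9 genes between the percentiles 34.9 and 81.5 of 21518 protein-coding genes.

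Changes were tested with limma on log2(RPM + 0.5), and adjusted p-values run over all genes whose mean reached 10 reads. A gene was called, and is said to have risen or fallen, at an adjusted p under 0.05 and an absolute log2 fold change over 0.58. Of the 9 genes, 7 could be tested, and Tex101 and Slc25a31 were under the read minimum in every comparison.

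At 48 h of knockdown, Hormad1 rose, and it was the single member called. This is 1 of 7 tested members, and 4.02% of all 16108 genes tested were called higher (8.67% in either direction). There were 2 when any of 4 libraries was omitted, with Mael added without 48 h ctrl replicate 1 (0.66) or 48 h kd replicate 3 (0.60), and Ddx4 without 48 h ctrl replicate 2 (0.61) or 48 h kd replicate 1 (0.58). By adjusted p alone, 4 of 7 members differed, all higher, against 26.2% of all genes in either direction. The groups did not overlap for 5 of 7 members, each higher in kd, against 20.5% of all genes. The median log2 fold change of the 7 members was 0.38 and all 7 values were positive, against a median of 0.0073 and 51.3% positive values over all genes. In 72 h kd against 48 h ctrl, Hormad1, Mael, Dazl and Sycp3 were called higher, 4 of 7 members, against 11.3% of 16146 genes (20.5% in either direction). By adjusted p alone, 5 of 7 were higher and 1 lower, against 62.2% of all genes in either direction. Without overlap, 5 of 7 were higher, against 34% of all genes, and 1 was lower, against 31.3%. The member median was 0.65, against 0.0143 over all genes. In 240 h kd against 240 h ctrl, Sycp1 and Ddx4 were called higher, 2 of 7 members, against 9.09% of 16633 genes (16.5% in either direction). Without 240 h ctrl replicate 3 there were 4, with Mael (0.59) and Hormad1 (0.66) added, and 4 also without 240 h kd replicate 1, with Dazl (0.62) and Hormad1 (0.60) added. By adjusted p alone, 5 of 7 were higher there, against 45.5% of all genes in either direction, and without overlap 6 of 7 were higher, against 27.7% of all genes. The member median was 0.56, against 0.0077 over all genes. The 48 h and 72 h comparisons share their control libraries, and no 72 h control was analysed here, so culture time and knockdown cannot be told apart at 72 h. A rise in bulk RNA can come from more cells that express a gene or from more RNA per cell, and these cannot be told apart.

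**Figure D1:**
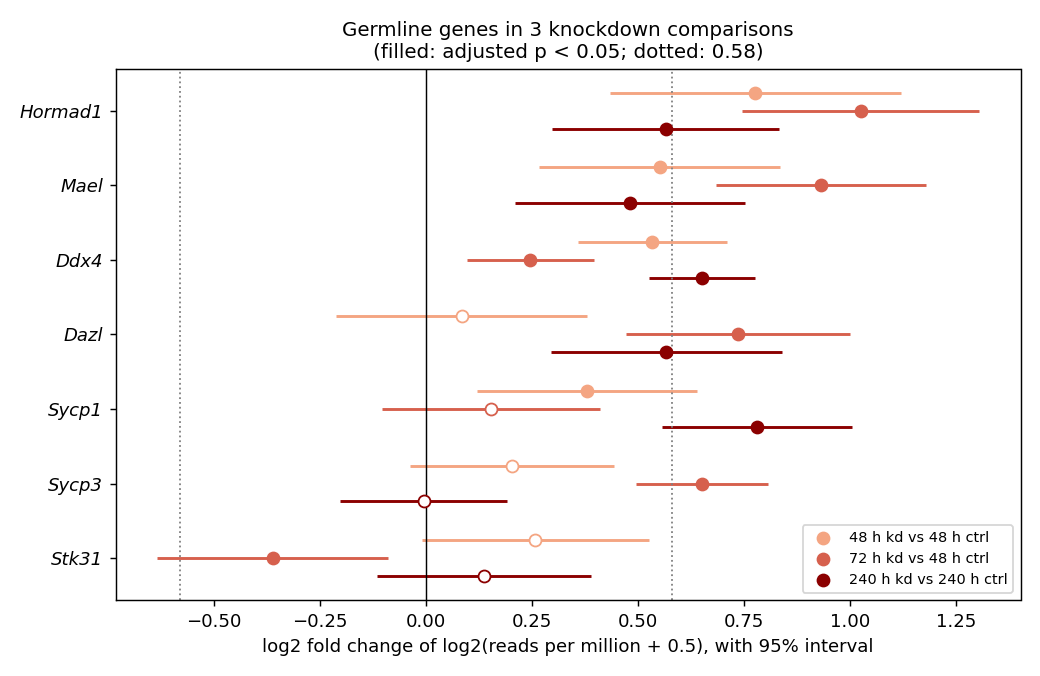
Log2 fold change (horizontal axis, on log2(RPM + 0.5)) of the 7 tested germline genes in 48 h kd against 48 h ctrl, 72 h kd against 48 h ctrl and 240 h kd against 240 h ctrl. Points are estimates, lines are 95% intervals, filled points have an adjusted p under 0.05 and dotted lines mark 0.58 in both directions. Most points lie right of 0, Stk31 lies left of it at 72 h, and Sycp3 is near 0 at 240 h.

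Hormad1, which encodes a HORMA-domain protein of the meiotic chromosome axis, was higher in every knockdown library than in any control library. The 48 h controls held 0.177, 0.129 and 0.189 FPKM, and the libraries after 48 h of knockdown 0.260, 0.329 and 0.290 FPKM. After 72 h of knockdown they held 0.366, 0.347 and 0.339 FPKM. The knockdown groups at 48 h and 72 h did not overlap with the control. The 240 h controls held 0.190, 0.197 and 0.237 FPKM and the 240 h kd libraries 0.298, 0.300 and 0.349 FPKM, again without overlap. Its rise at 48 h was 0.78 on the log2 scale (SE 0.16, adjusted p = 0.00301 by limma). That at 72 h was 1.03 (SE 0.14, adjusted p = 4.04e-07). Without 48 h kd replicate 2 the 48 h value was 0.70. At 240 h the difference of 0.56 (SE 0.13, adjusted p = 0.00141) passed the test but lay just under the fold threshold. It was called in 6 of 17 alternatives, among them the one without a minimum fold.

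Mael, a piRNA pathway gene, followed a course like that of Hormad1. The 48 h controls gave 0.208, 0.171 and 0.158 FPKM, knockdown for 48 h gave 0.289, 0.263 and 0.248 FPKM, and knockdown for 72 h gave 0.310, 0.360 and 0.385 FPKM. All 6 knockdown libraries lay above the 3 controls. At 240 h the control held 0.152, 0.173 and 0.206 FPKM and kd held 0.232, 0.279 and 0.243 FPKM. These groups did not overlap either. Mael rose at 72 h by 0.93 on the log2 scale (SE 0.12, adjusted p = 2.5e-07). The differences of 0.55 at 48 h (adjusted p = 0.00793) and 0.48 at 240 h (adjusted p = 0.00541) passed the limma test and lay under the fold threshold, and Mael was called in 3 of 17 alternatives at 48 h and 2 of 17 at 240 h, both times including the one without a minimum fold.

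Dazl, which encodes an RNA-binding regulator of translation in germ cells, rose after 48 h. The 48 h controls had 0.369, 0.342 and 0.415 FPKM, and the matching knockdown libraries had 0.372, 0.407 and 0.418 FPKM, so these groups overlapped. After 72 h of knockdown Dazl was at 0.565, 0.716 and 0.666 FPKM, above all 6 libraries of 48 h. Its log2 fold change was 0.08 at 48 h (SE 0.14, adjusted p = 0.698). By 72 h it was 0.74 (SE 0.13, adjusted p = 2.16e-05). Between the 2 knockdown groups themselves, 72 h kd against 48 h kd, Dazl rose by 0.65 (adjusted p = 0.00135). At 240 h the libraries held 0.310, 0.336 and 0.318 FPKM in the control and 0.453, 0.489 and 0.541 FPKM in kd, without overlap. The difference there was 0.57 (SE 0.13, adjusted p = 0.00162), just under the fold threshold, and was called in 5 of 17 alternatives, again including the one without a minimum fold.

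Ddx4, the germ cell helicase also known as Vasa, was the member with the most reads, 347 to 683 per library. Its FPKM were 0.529, 0.648 and 0.566 in the 48 h controls, 0.791, 0.883 and 0.857 after 48 h of knockdown, and 0.668, 0.650 and 0.751 after 72 h. The 48 h kd libraries were all above their controls, and 72 h kd lay between them. The later controls, at 240 h, held 0.566, 0.549 and 0.553 FPKM and the matching kd libraries 0.873, 0.869 and 0.890 FPKM. Ddx4 rose at 240 h by 0.65 (SE 0.06, adjusted p = 6.38e-08), a call lost on the log2(FPKM + 0.1) scale (0.576, adjusted p = 0.00118). Its 48 h difference of 0.53 (SE 0.08, adjusted p = 0.000398) lay under the fold threshold, and was called in 3 of 18 alternatives. From 48 h kd to 72 h kd the fitted difference was -0.29 (adjusted p = 0.00639), and from 72 h kd to 240 h kd it was 0.34 (adjusted p = 5.23e-06), neither past the fold threshold.

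Sycp1, which encodes the transverse filament protein of the synaptonemal complex, rose late. The 48 h controls were at 0.0670, 0.0706 and 0.0586 FPKM, knockdown libraries of 48 h at 0.0790, 0.0892 and 0.0906 FPKM, and those of 72 h at 0.0678, 0.0860 and 0.0666 FPKM. The 48 h kd libraries lay above the 48 h controls, while those of 72 h kd overlapped with them. Sycp1 at 240 h was 0.0984, 0.0801 and 0.0864 FPKM in the control and 0.174, 0.138 and 0.152 FPKM in kd. The kd libraries lay above the controls. At 48 h Sycp1 differed by 0.38 (SE 0.12, adjusted p = 0.0338), under the fold threshold, and the adjusted p stayed under 0.05 in 11 of 17 alternatives. The rise at 240 h was 0.78 on the log2 scale (SE 0.11, adjusted p = 9.7e-06). Against 72 h kd, 240 h kd was higher by 1.04 (SE 0.11, adjusted p = 7.42e-10). Sycp1 was the member whose untreated level also differed between 240 h and 48 h by adjusted p, by 0.41 (SE 0.12, adjusted p = 0.0318), under the fold threshold. That adjusted p stayed under 0.05 in 10 of 16 alternatives.

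Sycp3, a lateral element protein of the synaptonemal complex, was high at 72 h. Controls of 48 h gave 1.16, 1.28 and 1.26 FPKM, knockdown of 48 h gave 1.21, 1.67 and 1.43 FPKM, and knockdown of 72 h gave 2.01, 1.90 and 1.97 FPKM. The 72 h kd libraries lay above all others. At 240 h the control held 1.08, 0.962 and 1.03 FPKM and kd held 1.09, 1.01 and 0.956 FPKM, and these groups overlapped. The difference was 0.20 on the log2 scale at 48 h (adjusted p = 0.203) and the rise at 72 h was 0.65 (SE 0.07, adjusted p = 4.36e-08). The 240 h difference was -0.01 (95% interval -0.20 to 0.19, adjusted p = 0.97). From 72 h kd to 240 h kd, Sycp3 fell by 0.92 on the log2 scale (SE 0.08, adjusted p = 1.15e-11).

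Sycp3 lies on the opposite strand inside Chpt1, a gene of phospholipid synthesis, and the deposited values do not separate strands. Read density in the rest of the Chpt1 span was therefore set beside it. The mean of 3 libraries was 0.324 FPKM in controls and 0.299 in knockdown at 48 h, 0.432 after 72 h of knockdown, and 0.294 in controls and 0.376 in knockdown at 240 h. From 48 h ctrl to 72 h kd the density inside Sycp3 went up by 0.724 FPKM and that in the rest of Chpt1 by 0.108 FPKM. As log2 ratios of group means, these changes were 0.67 inside Sycp3 and 0.41 in the rest of Chpt1. In 48 h kd against 48 h ctrl the log2 ratios were 0.22 and -0.11. At 240 h the rest of Chpt1 was higher in kd by 0.0813 FPKM (log2 ratio 0.35), while Sycp3 differed by -0.003 FPKM (log2 ratio -0.004). How many of the Sycp3 reads came from Chpt1 was not tested.

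**Figure D2:**
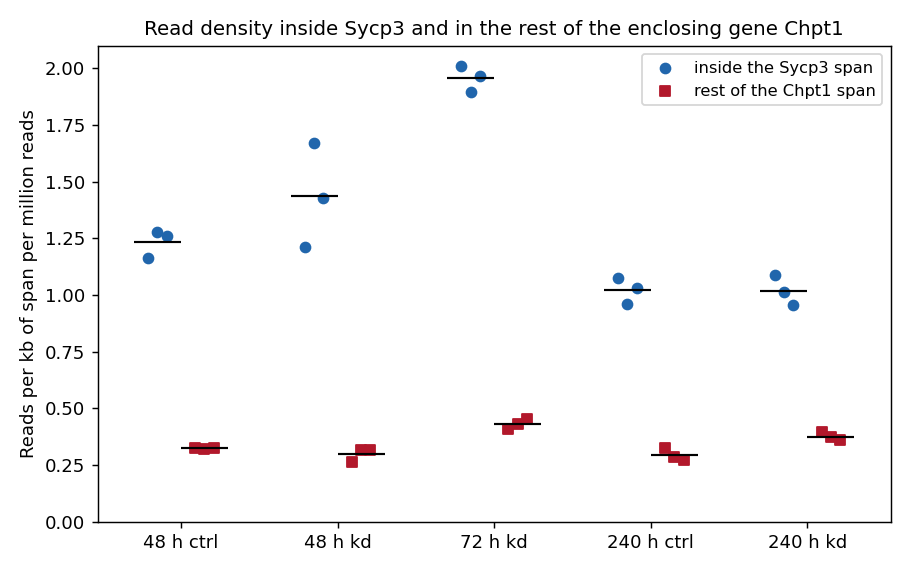
Read density (FPKM) inside the Sycp3 span (circles) and in the rest of the enclosing gene Chpt1 (squares) in the 3 libraries of each group, with group means as lines. Sycp3 peaks in 72 h kd at a mean of 1.96. The rest of Chpt1 also has its highest mean there, 0.432, and ranges from 0.265 to 0.452 over all libraries.

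Stk31, which encodes a kinase with a Tudor domain, was called in none of the 3 comparisons of knockdown with control. On the RPM scale the 48 h controls had 7.51, 8.21 and 6.54, knockdown for 48 h had 8.51, 9.46 and 8.85, and knockdown for 72 h had 5.94, 6.07 and 4.97. The 72 h kd libraries lay below both 48 h groups. The 240 h controls had 7.32, 7.39 and 7.42 RPM and the 240 h kd libraries 7.74, 9.37 and 7.49 RPM, close but without overlap. The difference at 72 h was -0.36 (SE 0.13, adjusted p = 0.0203), under the fold threshold. Against 48 h kd, Stk31 fell in 72 h kd by 0.62 on the log2 scale (SE 0.13, adjusted p = 0.00165), a call lost without 48 h kd replicate 2 (-0.58) or 72 h kd replicate 3 (-0.54). At 48 h and 240 h its differences were 0.26 (adjusted p = 0.147) and 0.14 (adjusted p = 0.375). A transcript inside its span on the other strand, Gm17060, held 1 to 9 reads per library.

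Tex101 and Slc25a31 stayed near the detection limit. Tex101 held 1 to 17 reads per library and Slc25a31 0 to 11, and neither was tested in the main fits. At 48 h, Tex101 had 7, 4 and 5 reads in controls and 4, 2 and 1 in knockdown, then 9, 9 and 7 after 72 h of knockdown. Its 240 h reads were 8, 6 and 6 in controls and 3, 17 and 9 in knockdown. Slc25a31 had 4, 7 and 1 reads in controls and 3, 2 and 2 in knockdown at 48 h, and 4, 7 and 0 after 72 h. At 240 h it had 6, 2 and 3 in controls and 11, 5 and 10 in knockdown. The knockdown and control groups of Slc25a31 overlapped at each time, and those of Tex101 at 240 h. Tex101 was lower in 48 h kd and higher in 72 h kd than in the 48 h controls without overlap, on 1 to 9 reads. When the read minimum was dropped, Tex101 was called higher in 72 h kd against 48 h kd (0.73, limma adjusted p = 0.0161), and neither gene was called in the other 6 comparisons. Slc25a31 holds both promoter motifs named above and the Tex101 window holds neither. That window (chr7:24672051-24672300, minus strand) lies inside the counted span of Tex101 (chr7:24668007-24676675). It therefore does not describe the bases before the start of that span.

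**Figure D3:**
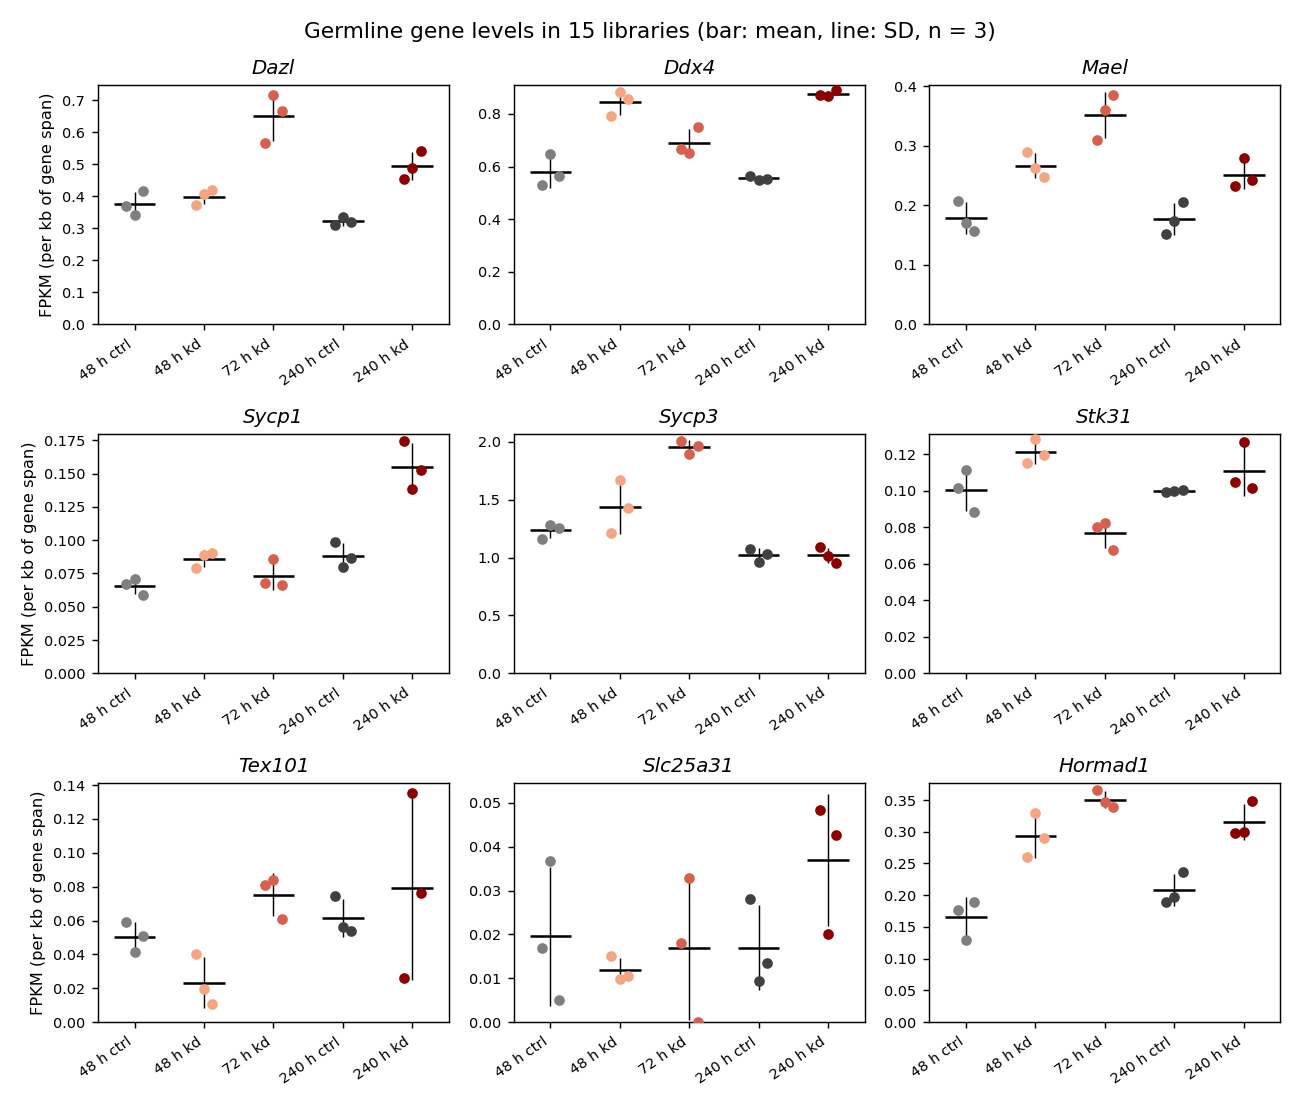
FPKM per kilobase of gene span (vertical axes, each from 0) of the 9 germline genes in the 5 groups. Points are libraries, bars are group means and lines are SDs (n = 3). Hormad1 and Mael are higher in all 3 knockdown groups, Dazl from 72 h on, Sycp1 mainly at 240 h, Sycp3 at 72 h, and Stk31 is lowest in 72 h kd.

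In untreated cells, no member was called over culture time. In 240 h ctrl against 48 h ctrl, 0 of 7 members were called by limma, against 1.17% of 16215 genes. At an unadjusted p under 0.05 there were 2 members, and limma voom on the recovered reads called 0. The groups did not overlap for 4 of 7 members, against 31.8% of all genes: Sycp1 and Hormad1 were higher at 240 h (14.4% of all genes were) and Dazl and Sycp3 lower (17.4%). The summed level of the 9 genes was 78.7 to 85.0 RPM in controls of 48 h and 77.1 to 81.2 RPM in those of 240 h. After 48 h of knockdown the sum was 101.2 to 115.9, after 72 h 108.5 to 114.3 and after 240 h 113.9 to 114.9 RPM. All 9 knockdown libraries lay above all 6 control libraries on this sum. Ddx4 was its largest part in each group. The mean level of Ddx4 was 31.5 RPM in 48 h ctrl, 45.7 in 48 h kd and 37.4 in 72 h kd. At 240 h it was 30.1 RPM in the control and 47.5 in kd. The sum does not show a rise of each member, since Stk31 was lower at 72 h and the Sycp3 groups overlapped at 240 h.

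Within knockdown, Dazl was called higher and Stk31 lower from 48 h to 72 h, 2 of 7 members, against 11.8% of 16104 genes in either direction (6.29% higher and 5.51% lower). From 72 h to 240 h, Sycp1 was called higher and Sycp3 lower, 2 of 7, against 22.8% of 16562 genes (11% higher and 11.8% lower). Culture time and knockdown duration cannot be told apart in these comparisons. Whether the knockdown effect at 240 h differed from that at 48 h was tested over 12 libraries, and 0 of 7 members were called by limma, against 10.6% of 16403 genes. At an unadjusted p under 0.05 there were 2 members, and limma voom called 0. Dazl came with a difference of effects of 0.48 (SE 0.17, adjusted p = 0.0554) and Sycp1 with 0.40 (SE 0.16, adjusted p = 0.0852).

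The courses of the members over the 15 libraries were related to unequal degrees. Given as descriptions over libraries that share group means, Pearson's r on log2 levels was 0.82 for Mael with Hormad1 and 0.82 for Dazl with Mael. It was -0.55 for Dazl with Stk31 and -0.48 for Sycp1 with Sycp3. The mean standardised level of the 7 members ran from -0.81 to -0.57 in control libraries and from 0.14 to 0.64 in knockdown libraries. The non-member genes most like this mean course, among 16363 genes, were Gm16048 (r = 0.979), Has2 and Pnpla7 (0.973 each), and Mfap3l and Gm9732 (0.972 each).

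Other germline genes showed rises and falls side by side. Of 50 listed, 49 were in the files and 37 to 39 could be tested per knockdown comparison. At 48 h, 6 rose and 0 fell, at 72 h 12 rose and 6 fell, and at 240 h 16 rose and 4 fell. Of all genes, 4.02% were called higher and 4.66% lower at 48 h, 11.3% and 9.18% at 72 h, and 9.09% and 7.42% at 240 h. The median log2 fold changes of the list were 0.26, 0.22 and 0.36, against 0.0073, 0.0143 and 0.0077 over all genes. In 240 h ctrl against 48 h ctrl, 1 of 37 was called, Rhox5 (0.61, adjusted p = 0.0441). Limma voom did not call it (adjusted p = 0.0578), nor did the fits with no filter on low values (0.155), no trend in the prior variance (0.0853), a pseudocount of 1 (log2 difference 0.51) or the log2(FPKM + 0.1) scale (0.091), nor those without 48 h ctrl replicate 1, 2 or 3 (0.0742, 0.145 and 0.101) or 240 h ctrl replicate 2 (0.21). Dmrt1, a transcription factor of testis and germ cells, went from 18.7 to 43.8 RPM at 48 h (log2 fold change 1.21, adjusted p = 5.5e-07), and its log2 fold changes at 72 h and 240 h were 2.50 and 2.29. Stra8, which licenses entry into meiosis, differed by -0.12 at 48 h (adjusted p = 0.714) and rose by 0.96 at 72 h and 3.63 at 240 h, where it went from 2.08 to 31.1 RPM. Stag3, a meiotic cohesin subunit, rose by 1.03, 1.90 and 0.98 in the order 48 h, 72 h and 240 h.

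Zcwpw1, a histone reader of meiotic recombination, rose by 0.85, 1.07 and 1.17. Its span overlaps Pilra, and strands are not separated. Tdrkh, a Tudor protein of the piRNA pathway that overlaps Oaz3 and other transcripts, rose by 1.17 at 72 h and 1.44 at 240 h. Gtsf1, a piRNA pathway factor, rose by 0.88 at 48 h and 1.36 at 240 h, and its 48 h call was lost without 48 h ctrl replicate 2, 48 h ctrl replicate 3 or 48 h kd replicate 3 (adjusted p = 0.0537, 0.06 and 0.068). The 5 genes called higher in all 3 comparisons were Dmrt1, Stag3, Zcwpw1, Smc1b and Dpep3, of which the last 2, named after their values were seen, are a meiotic cohesin subunit and a testis dipeptidase. Smc1b rose by 0.87, 2.32 and 0.83 at 48 h, 72 h and 240 h, and its 48 h call was lost without 48 h ctrl replicate 2 or 3 (adjusted p = 0.0591 and 0.0716), and with no trend in the prior variance (0.054). The 4 that fell at 240 h were Hormad2 by 1.98, Nxf3 by 0.84, Tex11 by 0.70 and Tuba3a by 0.62 on the log2 scale, also named after their values were seen. Hormad2, a paralogue of Hormad1, fell by 0.82 at 72 h too. Tdrd1, Tdrd12 and D1Pas1, named after their values were seen, had lower mean levels in 72 h kd (1.92, 10.8 and 7.02 RPM) than in 48 h ctrl (3.94, 21.2 and 12.2 RPM). At 240 h, Tdrd1 and D1Pas1 were higher in kd (7.16 and 21.8 RPM) than in the control (3.19 and 11.6 RPM). Tuba3a has a near-identical copy, Tuba3b, so its reads are uncertain, and its call was lost without 240 h ctrl replicate 3 (-0.57) or 240 h kd replicate 3 (-0.51).

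**Figure D4:**
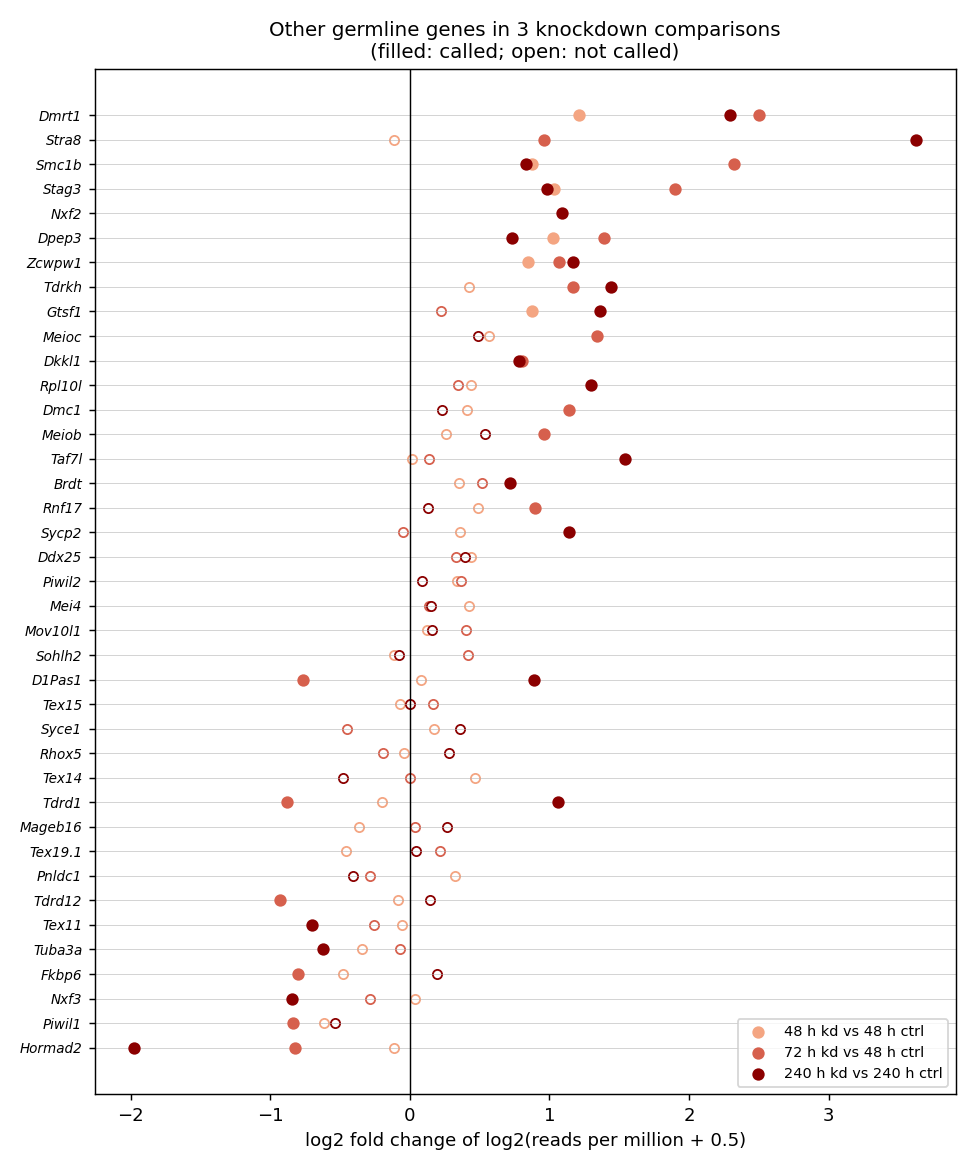
Log2 fold change (horizontal axis) of the other germline genes tested in 48 h kd against 48 h ctrl, 72 h kd against 48 h ctrl and 240 h kd against 240 h ctrl, ordered by their mean. Filled points are called genes and open points are not called. Dmrt1 lies at 1.21, 2.50 and 2.29, and Stra8 at -0.12, 0.96 and 3.63, in the order 48 h, 72 h and 240 h.

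Genes of the repressive machinery were examined beside the members. Of 15 genes of the variant Polycomb complex, among them E2f6, Mga and Pcgf6, 0 were called by limma in each of the 3 knockdown comparisons. By adjusted p alone, 2 were higher and 3 lower at 48 h, 3 higher and 7 lower at 72 h, and 3 higher and 5 lower at 240 h, against the 26.2%, 62.2% and 45.5% of all genes given above. At an unadjusted p under 0.05 there were 6, 11 and 8 in the order 48 h, 72 h and 240 h, and limma voom called 0 in each. The difference between the 240 h and 48 h effects was called for 1 of the 15 by limma and by limma voom: Mga, named after its values were seen, at 0.24 at 48 h and -0.36 at 240 h (difference -0.60, adjusted p = 0.000276). That call was lost without 48 h ctrl replicate 3 (-0.54), 48 h kd replicate 2 (-0.52), 240 h ctrl replicate 1 (-0.53) or 240 h kd replicate 2 (-0.57). Of 12 genes of DNA methylation and linked silencing, Tet3, which oxidises methylcytosine, rose at 48 h (0.66) and 240 h (0.74), and Tet2 fell at 72 h by 0.59 and at 240 h by 0.85 on the log2 scale. The 72 h call of Tet2 was lost without 48 h ctrl replicate 1 (-0.54) and without 72 h kd replicate 1 or 3 (-0.57 each), and also with quantile normalization (-0.57) and on the log2(FPKM + 0.1) scale (-0.56). The remaining calls, named after their values were seen, were the de novo methylation genes Dnmt3b, which fell by 0.81 at 72 h and rose by 0.90 at 240 h, and Dnmt3a and Dnmt3l, which rose by 1.503 and 1.14 at 240 h. The spans of these 5 genes overlap genes on the opposite strand. Their part in the member changes was not tested.

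Markers of cell types were examined as well, and single markers are named after their values were seen. The summed stem cell markers overlapped at 48 h, with 5592 to 5859 RPM in controls and 5194 to 5847 RPM in knockdown. They were at 6236 to 6441 RPM after 72 h of knockdown, and at 5211 to 5632 RPM in controls and 4567 to 4630 RPM in knockdown at 240 h. Klf4 fell at 48 h by 0.87, at 72 h by 0.76 and at 240 h by 1.21 on the log2 scale, Esrrb fell at 240 h by 0.80 and Zfp42 by 0.58, and Dppa5a rose at 72 h by 1.04. The call of Zfp42 was lost with quantile normalization (-0.57) and without 240 h ctrl replicate 3 (-0.55) or 240 h kd replicate 2 (-0.56). The summed level of 6 later germ cell markers was 23.3 to 26.1 RPM in controls and 46.8 to 51.3 RPM in knockdown at 48 h, 112.9 to 118.2 RPM after 72 h of knockdown, and 26.9 to 27.7 RPM in controls and 140.5 to 142.8 RPM in knockdown at 240 h. Dmrt1 made up most of this sum, at 18.7, 43.8 and 108 RPM in the first 3 of these groups, and Stra8 added to it at 240 h. Piwil1 fell at 72 h by 0.84 on the log2 scale (adjusted p = 0.0019), and Zp3 differed by -0.49 at 72 h, under the fold threshold (called without 72 h kd replicate 3, -0.63, and with limma voom, -0.59, or a pseudocount of 0.1, -0.58), and rose by 0.87 at 240 h. Of these 6, Dmrt1, Stra8 and Piwil1 are also in the list of other germline genes, and Prm1 and Zbtb16 held 0 to 8 reads in every library. The 5 markers of primordial germ cell specification summed to 121.6 to 126.8 RPM after 48 h of knockdown, 216.5 to 228.1 RPM after 72 h and 137.2 to 157.3 RPM in the other 3 groups. Tfap2c rose at 72 h (150 RPM, against 79.2 in the 48 h controls), and at 48 h it fell by 0.62 on the log2 scale. Nanos3 was called higher at 48 h (0.64), a call lost without 48 h kd replicate 2 (0.46), without 48 h ctrl replicate 2 or 3 (0.53 and 0.59), with no trend in the prior variance (adjusted p = 0.0718) and on the log2(FPKM + 0.1) scale (adjusted p = 0.105). At 240 h, Prdm1 fell by 1.98, Prdm14 by 1.14 and Dnd1 by 0.62 on the log2 scale, while Nanos3 rose by 1.13 and Tfap2c by 0.65 in the same comparison. The call of Dnd1 was lost without 240 h ctrl replicate 1 (-0.56) or 240 h kd replicate 1 (-0.504). The 6 2-cell-like markers summed to 10.3 to 11.3 RPM in 240 h kd and to at most 0.678 elsewhere. The 6 fibroblast markers summed to 3.07 to 3.36 RPM in controls and 4.09 to 5.69 RPM in knockdown at 48 h, 5.08 to 6.18 RPM after 72 h of knockdown, and 4.66 to 5.602 RPM in controls and 17.2 to 20.9 RPM in knockdown at 240 h, so each knockdown group lay above the controls it was compared with, while 72 h kd overlapped the 240 h controls. Among them Col1a1, a collagen gene, rose by 0.66, 0.71 and 1.71 on the log2 scale in the order 48 h, 72 h and 240 h. Its 48 h call was lost without 48 h ctrl replicate 3 (adjusted p = 0.0518) or 48 h kd replicate 3 (0.0669), and its 72 h call with the 240 h controls in place of the 48 h ones (0.14). This list had Dcn, Lum and Postn at 0 to 3 reads in every library. The part of these markers in the member changes was not tested.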

How the data were processed

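RNA was sequenced as single reads from 15 libraries in 5 groups of 3. Per the labels' processing notes, the tools were STAR 2.7.0c, DESeq2 1.30.0 and R 4.0.3, with mm10 and GRCm38.p6. The authors deposited FPKM per gene and library, and the gene annotation behind them is not given in the sources used here. Library totals were not read from the files. Each was fitted as the single number that best turns FPKM times gene span into whole reads. With that 1 number per library, 100% of values were whole (tolerance 0.001), so spans include introns. Summed over genes, reads exceeded these totals by 7.38% to 8.34%. Reads in overlapping genes may be counted for each of them, and the source of the excess was not tested.

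RPM, the per-million read counts, were tested two-sided with limma 3.58.1 in R 4.3.3 (lmFit, eBayes with trend) on log2(value + 0.5), for genes whose mean reached 10 reads in the libraries compared, with Benjamini-Hochberg adjustment and the study's thresholds (0.05 and 0.58). The procedure was also run on simulated data, and the outcome is not reported here. Identifiers come from GENCODE M21 (96.5% of genes matched) and promoters from RefSeq for GRCm38.p6. The 9 members were Dazl (ENSMUSG00000010592.9, chr17:50279395-50293636), Ddx4 (ENSMUSG00000021758.14, chr13:112598333-112652475), Mael (ENSMUSG00000040629.8, chr1:166201201-166238747), Sycp1 (ENSMUSG00000027855.13, chr3:102818499-102936100), Sycp3 (ENSMUSG00000020059.9, chr10:88459569-88473236), Stk31 (ENSMUSG00000023403.14, chr6:49395604-49469501), Tex101 (ENSMUSG00000062773.6, chr7:24668007-24676675), Slc25a31 (ENSMUSG00000069041.8, chr3:40708855-40726096) and Hormad1 (ENSMUSG00000028109.14, chr3:95559677-95587671), all protein-coding.

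The members and lists were chosen with earlier results of these data known. Named were all members, Smarcb1 and, from each list of other germline, Polycomb and DNA methylation genes, at most 6 genes called in at least 2 of the 3 knockdown comparisons in 1 direction, by their smallest log2 fold change; and the 5 genes most like the mean course of the members. Same-numbered replicates were checked for shared deviations (r from -0.233 to 0.12), so replicate numbers were not taken as pairs. The 15 pairs of libraries within groups differed by 1.3 to 11.3 times the sampling noise, so none was a duplicate. Alternatives were other pseudocounts, read minimums, an FPKM scale, limma voom, other scalings, a replicate block, 1 fit of all libraries, no minimum fold and leaving out each library.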

Additional observations from a re-analysis of the deposited data

Results flagged for a closer look

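No member was flagged. The knockdown effect at 240 h differed from that at 48 h, by a limma test of the difference itself over 12 libraries, for 17 of the non-member genes whose log2 fold changes are given above. The difference of effects on the log2 scale was 3.75 for Stra8 (adjusted p = 2.32e-09), 1.08 for Dmrt1 (1.84e-07) and 1.02 for Tdrkh (0.00082). It was -1.87 for Hormad2 (adjusted p = 2.24e-06), -0.88 for Nxf3 (0.023) and -0.65 for Tex11 (0.00229). For the DNA methylation genes it was 1.24 for Dnmt3l (adjusted p = 3.56e-08), 1.23 for Dnmt3a (1.48e-10), 0.99 for Dnmt3b (6.93e-10) and -1.07 for Tet2 (3.8e-06). Among the cell type markers it was -1.94 for Prdm1 (adjusted p = 2.6e-09), 1.27 for Tfap2c (1.85e-09), -0.96 for Prdm14 (2.56e-06), -0.64 for Esrrb (4.53e-07), 1.05 for Col1a1 (0.00107) and 0.84 for Zp3 (0.0154, and 0.0611 with no filter on low values). It was -0.60 for Mga (adjusted p = 0.000276), which depended on single libraries. The Nxf3 call was lost without 48 h ctrl replicate 2 (adjusted p = 0.0593), 240 h ctrl replicate 1 (0.0676) or 240 h kd replicate 3 (0.0681), with no filter on low values (0.0622) and with no trend in the prior variance (0.0516), and that of Tex11 without 240 h ctrl replicate 1 (log2 difference -0.55). Groups of 3 libraries were not tested for outlying libraries.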

How the results depend on the processing

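Of 3280 values of named genes recomputed under the alternatives, 3178 stayed on their side of the thresholds, 49 lost a call, 53 gained one and 0 changed direction as a call. Of 1647 values not called either way, 40 had another sign. The replicate block changed no count of members called (1, 4 and 2 higher at 48 h, 72 h and 240 h) and called 1355, 3312 and 2758 genes in all. Taking log2(FPKM + 0.1) with at least 0.5 FPKM left 4 or more of the 7 members untested in each comparison, and Ddx4, tested at 240 h, missed the fold threshold (0.576): 0, 2 and 0 were called higher in the order 48 h, 72 h and 240 h, 0 lower from 48 h to 72 h and 0 higher from 72 h to 240 h within knockdown. It called 456, 1548, 1016, 54 (240 h ctrl against 48 h ctrl), 857, 1803 and 664 (difference of effects) genes, against 1397, 3314, 2746, 190, 1901, 3782 and 1732. With at least 50 reads the counts were 827, 2132, 1574, 87, 1127 and 2419. Without a minimum fold, 4219, 10039 and 7570 genes passed, with 4 members higher at 48 h, 1 lower at 72 h and 5 higher at 240 h. At 240 h, 4 members were called higher with a pseudocount of 0.1 and with limma voom. With no filter, 2 members were called higher from 48 h to 72 h (Tex101 added), and with median centring 2 from 72 h to 240 h. For 240 h ctrl against 48 h ctrl, a pseudocount of 1 gave 118 genes and no trend 59. Leaving out 1 library gave 1 to 2 members called higher at 48 h (2 without 48 h ctrl replicate 1 or 2, or 48 h kd replicate 1 or 3), 2 to 4 at 240 h (4 without 240 h ctrl replicate 3 or 240 h kd replicate 1), 0 to 1 lower from 48 h to 72 h, and 95 to 280 genes for 240 h ctrl against 48 h ctrl (123 and 95 without 48 h ctrl replicates 2 and 3). Median centring moved the share of calls that were higher from 55.3% to 45.3% at 72 h, from 53.3% to 43.1% from 48 h to 72 h and from 48.4% to 61.9% from 72 h to 240 h. The cause of these shifts was not tested. Depth limits Tex101 and Slc25a31. The spans include introns, and intronic reads were not separated from exonic ones.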
